A study of Homo sapiens with 6 samples.

Results

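The genes described here encode the plasminogen activators PLAT and PLAU, the receptors PLAUR and PLGRKT, and the serpin inhibitors SERPINE2 and SERPINB2. They were looked up by symbol, and all 6 were found among the 27980 symbols counted in each library. The set was chosen by role and with the measured shTRIP6 and shControl levels of these genes already known, so their differences between the groups are given as a description and without a test. Total RNA was sequenced from RKO, a human colon carcinoma cell line that the labels call poorly differentiated. Of the 6 libraries, 3 came from cells with a stable lentiviral hairpin against TRIP6 (shTRIP6, labelled TRIP6 knockdown) and 3 from cells with a stable scrambled hairpin (shControl, labelled WT). Both groups were selected with puromycin at 5 µg/ml for 2 to 3 weeks, beginning 36 h after infection. The labels do not say whether each line was a pool or a clone, or how many hairpins were used.

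Plasminogen is a circulating zymogen that tissue-type activator (tPA, from PLAT) and urokinase (uPA, from PLAU) cleave to plasmin, a protease that degrades fibrin and matrix proteins. Urokinase is held at the cell surface by its GPI-anchored receptor uPAR (PLAUR), and plasminogen by binding proteins such as PLGRKT, while serpins block the activators by forming covalent complexes with them. In colon cancer this system is known mainly for proteolysis at the surface of invading cells.

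Libraries held 31096598 to 32089298 counts in shTRIP6 and 29605764 to 30949334 counts in shControl, and 1 count was worth 0.0314 to 0.0336 CPM (TMM-scaled CPM, a gene's share of its library). TRIP6 itself stood at 24.3% of the control level, 19.5 ± 0.203 against 80.3 ± 6.27 CPM (SD, n = 3 libraries in each group, as for all values below). The labels number the libraries as biological replicates without naming separate cultures, so the p-values below reflect only how far these samples spread, which may be technical. Of 15473 genes tested, edgeR called 29.0% higher and 31.2% lower in shTRIP6 (adjusted p under 0.05). A difference between the infected stocks cannot be told apart from the hairpin. Of the epithelial markers, the keratin genes KRT8 and KRT18 were abundant in both groups (1719.5 ± 72.9 and 885 ± 34.4 CPM in shTRIP6), whereas EPCAM had no count in any library, CDH1 had 2 and 25 counts over shTRIP6 and shControl, and CDX2 had 8 and 0. KRT19, the other of the 6 markers and the only 1 called, rose from 13.8 ± 2.27 to 50.7 ± 3.15 CPM (edgeR adjusted p = 7.84e-12). The labelled carcinoma line thus held keratin RNA and almost no RNA of the epithelial adhesion genes EPCAM and CDH1 or of the intestinal factor CDX2.

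RefSeq promoter windows (GRCh38.p14) were matched for 5 of the 6 genes, the exception being PLAT. The 250 bases before the start are shown for PLAU, for its receptor and for SERPINB2, because these windows held matches to different motifs. Capitals mark matches, on either strand, to the AP-1 motif TGACTCA, the TATA motif TATAAA, the GC box GGGCGG and the TEAD motif GGAATG, and the matches printed do not overlap. Each sequence is written 5′ to 3′ on the strand of its gene: PLAU at chr10:73910882-73911131 (plus strand, the second of its 2 windows), PLAUR at chr19:43670170-43670419 (minus strand) and SERPINB2 at chr18:63887455-63887704 (plus strand).
PLAU: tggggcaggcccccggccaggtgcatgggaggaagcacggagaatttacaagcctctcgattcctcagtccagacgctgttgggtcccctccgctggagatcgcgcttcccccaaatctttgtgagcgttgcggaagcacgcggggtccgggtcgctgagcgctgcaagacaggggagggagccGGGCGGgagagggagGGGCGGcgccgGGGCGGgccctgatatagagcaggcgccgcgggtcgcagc
PLAUR: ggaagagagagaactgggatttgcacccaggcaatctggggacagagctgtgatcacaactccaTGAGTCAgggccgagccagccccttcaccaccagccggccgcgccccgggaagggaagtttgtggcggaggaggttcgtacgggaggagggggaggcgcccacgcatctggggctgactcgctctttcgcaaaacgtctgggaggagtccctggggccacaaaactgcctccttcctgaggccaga
SERPINB2: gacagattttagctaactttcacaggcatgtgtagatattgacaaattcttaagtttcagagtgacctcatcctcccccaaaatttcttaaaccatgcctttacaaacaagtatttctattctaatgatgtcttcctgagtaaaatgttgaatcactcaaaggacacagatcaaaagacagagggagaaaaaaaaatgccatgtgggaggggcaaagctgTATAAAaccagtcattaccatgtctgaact
The PLAU window held 3 GC boxes, which began 66, 51 and 40 bases before the start, and 42.6% of the 35116 windows of this length hold one. Both windows of SERPINE2, not printed here, also held GC boxes, and the other PLAU window held no match. PLAUR held an AP-1 match 186 bases before the start, which 4.20% of windows share. SERPINB2 held a TATA match 30 bases before the start, which 10.7% of windows share, and its GC content of 37.2% lay below those of PLAU (68.8%), PLAUR (63.2%) and the median window (58.0%). The TEAD letters, found in 11.9% of windows, were in none of the 7 windows of the 5 genes. A match describes the letters and is not a binding site.

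The activators were higher in shTRIP6. PLAT (GRCh38, GENCODE 29: chromosome 8, 42175233 to 42207724, minus strand) stood at 359.6, 369.8 and 361 CPM in the shTRIP6 libraries and at 44.1, 43.5 and 43.8 CPM in the shControl libraries. Its groups lay far apart, with a fold of 8.30 between the means and a log2 fold change of 3.05 ± 0.048 (SE). PLAU (chromosome 10, 73909177 to 73917497, plus strand) stood at 523, 540.5 and 521 CPM in shTRIP6 and at 94.2, 109 and 100.03 CPM in shControl. Its groups were likewise apart, with a fold of 5.23 and a log2 fold change of 2.39 ± 0.053. Among all tested genes these log2 fold changes lay at percentile 99.8 for PLAT and 99.5 for PLAU. Those of the other genes described here were less extreme, at percentile 79.9 for PLAUR, 79.3 for PLGRKT, 8.39 for SERPINE2 and 11.1 for SERPINB2. Nothing is read from these ranks, since the genes were chosen with their levels known. Exons of PLAU share 916 bases with C10orf55 on the opposite strand, and no strand setting was found for the counts. Counts of C10orf55 were 21.2% to 24.4% of those of PLAU, and with them taken off the log2 fold change of PLAU was 2.37. As this share was similar in all libraries, taking it off could hardly move that value and is no check on the overlap. In bulk RNA, more or fewer cells that express a gene and more or less of its RNA per cell cannot be told apart.

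Markers of other cell types known to make activators or uPAR were measured beside these genes. The 5 endothelial markers summed to 0.257 to 0.288 CPM in shTRIP6 and 1.78 to 2.31 CPM in shControl, and PECAM1 had 0 and 151 counts. The 7 leukocyte markers summed to 237 to 246 CPM in shTRIP6 and 188 to 236 CPM in shControl, nearly all of it CD68 (239 ± 4.68 against 208 ± 24.9 CPM), a lysosomal gene also found outside leukocytes. Both CD68 and the monocyte gene CD14, which rose from 0.520 ± 0.189 to 2.22 ± 0.540 CPM, were called higher in shTRIP6, and CSF1R did not pass (edgeR adjusted p = 0.0726). PTPRC, which defines leukocytes as CD45, had 0 and 9 counts, and 5 of the 7 stayed under 1 CPM in every library. The 6 fibroblast markers summed to 145 to 165 CPM in shTRIP6 and 106 to 117 CPM in shControl, mostly THY1 (153 ± 10.5 against 89.3 ± 5.03 CPM), while DCN had 0 and 95 counts and FAP stood at 0.328 ± 0.0763 against 15.0 ± 1.33 CPM. Of 5 tested fibroblast markers, 1 was called higher, 3 lower and 1 did not pass, beside 29.0% of all tested genes called higher and 31.2% lower. The part of other cell types in the results was not tested.

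The receptors differed less than the activators. PLAUR (chromosome 19, 43646095 to 43670547, minus strand) stood at 126, 118 and 118 CPM in shTRIP6 and at 95.1, 84.9 and 96.7 CPM in shControl. Its shTRIP6 libraries were all above its shControl libraries, with a fold of 1.31 and a log2 fold change of 0.39 ± 0.057. PLGRKT (chromosome 9, 5357973 to 5437878, minus strand) was the least abundant of the 6 genes, at 6.06, 5.95 and 4.89 CPM in shTRIP6 and at 3.87, 4.65 and 4.46 CPM in shControl. Its groups did not overlap, but the lowest shTRIP6 library lay close to the highest shControl library, and its log2 fold change of 0.38 ± 0.17 had the largest SE of the 6. It rested on 152 to 193 counts per shTRIP6 library and 115 to 145 per shControl library, which limits its precision.

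The serpins SERPINE2 and SERPINB2 were lower. SERPINE2 (protease nexin-1; chromosome 2, 223975112 to 224039319, minus strand) inhibits thrombin, urokinase and tPA outside the cell. Its level was 89.7, 87.2 and 86.8 CPM in shTRIP6 and 237, 218 and 236 CPM in shControl. The groups lay far apart, with the shTRIP6 mean at 38.2% of the shControl mean and a log2 fold change of -1.39 ± 0.050. SERPINB2 (PAI-2; chromosome 18, 63871692 to 63903890, plus strand) inhibits urokinase and is largely kept inside the cell. Its level was 716, 745 and 724 CPM in shTRIP6 and 1407, 1392 and 1474 CPM in shControl. Here too the groups lay apart, with the shTRIP6 mean at 51.1% of the shControl mean and a log2 fold change of -0.97 ± 0.039. Exons of SERPINB2 share 547 bases with SERPINB10, whose counts came to at most 0.0482% of those of SERPINB2. Over the 6 genes, shTRIP6 libraries lay wholly above shControl libraries in 4 and wholly below in 2. The same held for 31.8% and 33.5% of all tested genes, and nothing is read from this count, since the contrast was used in choosing the genes.

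**Figure D1:**
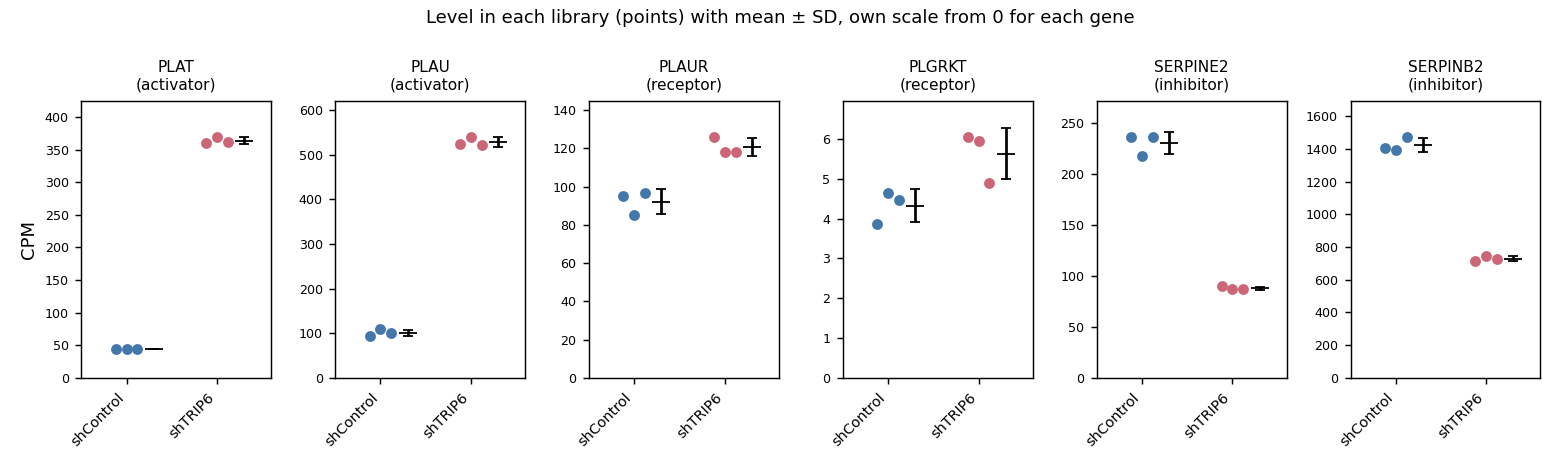
CPM in each library for the 6 plasminogen genes, with points for the 3 shControl and 3 shTRIP6 libraries and bars for mean ± SD; each panel has its own axis from 0. The activators were higher in shTRIP6, the receptors slightly higher, and SERPINE2 and SERPINB2 lower.

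Plasminogen itself and other inhibitors of plasmin or of the activators formed a further list, of which 4 genes reported here were tested, beside 29.0% of all genes called higher and 31.2% lower. Of these, SERPINI1 fell and SERPINF2, SERPINB6 and SERPINB8 did not pass. SERPINI1 (neuroserpin, an inhibitor of tPA), named after its values were seen, had only 11 counts in shTRIP6 and 41 in shControl (edgeR adjusted p = 0.0270). Its adjusted p ranged from 0.0135 to 0.126 over the alternatives, with limma-voom the lowest, and edgeR no longer called it without the low-count filter (0.0646), without shTRIP6 replicate 1 (0.0771) or 2 (0.126), and without shControl replicate 2 (0.0684) or 3 (0.0699). SERPINF2, which encodes the plasmin inhibitor alpha-2-antiplasmin, stood at 0.284 ± 0.282 against 0.546 ± 0.199 CPM and did not pass (edgeR adjusted p = 0.252). Plasminogen RNA was nearly undetected: PLG had no count in shTRIP6, which allows up to 0.0318 CPM over the group, and 9 counts over the shControl libraries.

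Levels of different genes were compared per kilobase of exon. In shControl the order was, in CPM per kilobase, SERPINB2 (518 ± 16.0), PLAU (34.2 ± 2.47), SERPINE2 (25.9 ± 1.20), PLAUR (20.7 ± 1.43), PLAT (6.62 ± 0.0477) and PLGRKT (2.90 ± 0.276). In shTRIP6 it was SERPINB2 (265 ± 5.53), PLAU (179 ± 3.60), PLAT (54.9 ± 0.841), PLAUR (27.1 ± 1.04), SERPINE2 (9.89 ± 0.174) and PLGRKT (3.77 ± 0.433). No neighbours in either order overlapped in their libraries. PLAT thus stood below PLAUR and SERPINE2 in shControl and above both in shTRIP6. With the longest transcript of each gene as its length, PLAUR stood above PLAU in shControl (57.3 ± 3.96 against 38.0 ± 2.74 CPM per kilobase), PLAU and SERPINE2 (38.5 ± 1.78) overlapped there, and the shTRIP6 order was the same.

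The make-up of each pair also differed. SERPINB2 stood at 20.017 ± 0.722 times the level of SERPINE2 per kilobase in shControl and at 26.8 ± 0.919 times in shTRIP6, so SERPINB2 made up nearly all of their summed level in both groups (95.2% ± 0.165 and 96.4% ± 0.120). Of the activators, PLAT made up 16.2% ± 1.07 of the summed level per kilobase in shControl and 23.5% ± 0.111 in shTRIP6, and PLAU the rest. PLAU was the more abundant activator in every library.

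Ratios within a library do not depend on the scaling between libraries. PLAU stood at 1.66 ± 0.235 times the level of its receptor PLAUR per kilobase in shControl and at 6.61 ± 0.322 times in shTRIP6, so the ratio was 3.97 times as high. PLAT stood at 0.256 ± 0.0105 times the level of SERPINE2 in shControl and at 5.56 ± 0.157 times in shTRIP6, which was 21.7 times as high. The summed activators stood at 0.0751 ± 0.00573 times the summed SERPINE2 and SERPINB2 in shControl and at 0.851 ± 0.00494 times in shTRIP6, 11.3 times as high. All 3 ratios were higher in each shTRIP6 library than in any shControl library. Nothing is read from this separation, since the genes were chosen with these levels known. The inhibitor sum covers SERPINE2 and SERPINB2 alone, and the ratio does not describe the balance with all inhibitors of the activators. These are ratios of RNA, and neither protein nor proteolytic activity was measured.

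**Figure D2:**
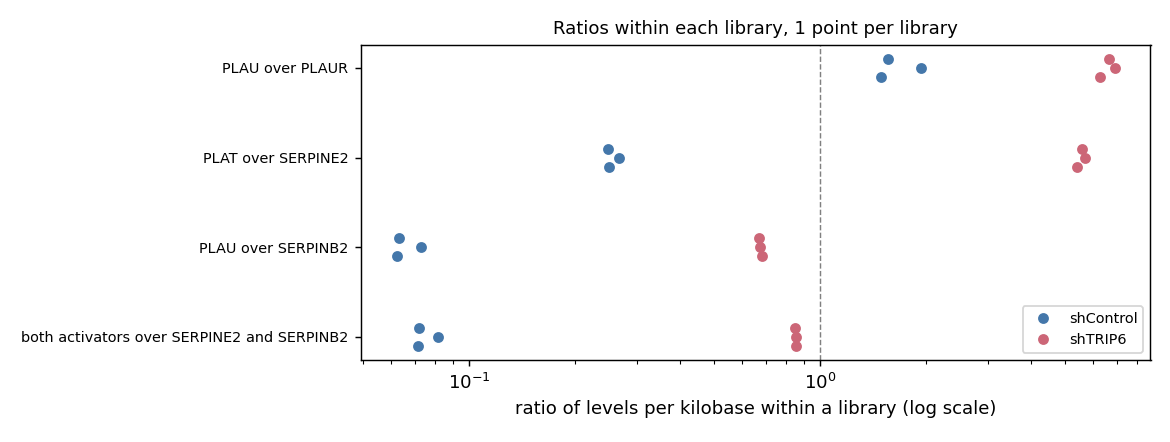
Ratio of levels per kilobase of exon within each library on a log axis, with 3 points for shControl and 3 for shTRIP6 in each row and a dashed line at a ratio of 1. Activators over SERPINE2 and SERPINB2 stood at 0.851 in shTRIP6 against 0.0751 in shControl.

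Other genes of the plasminogen system were taken from 8 lists, in which 76 genes were tested. Together 22 rose, 33 fell and 21 did not pass, with a median log2 fold change of -0.13 against -0.0040 over all tested genes. Over all tested genes 29.0% were called higher and 31.2% lower. The share of rises is thus near the background and that of falls above it, with 10 of the 33 falls among the uPAR partners and clearance receptors. The lists were chosen with earlier results of these data known, so nothing is read from these shares. No test of the lists was made.

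Of the proteins that hold plasminogen at the cell surface, 2 of 6 tested genes rose, 1 fell and 3 did not pass (median log2 fold change -0.043). ANXA2, the annexin that binds plasminogen and tPA, stood at 1192 ± 1.72 against 1225 ± 37.8 CPM (edgeR adjusted p = 0.377). Its partner S100A10 fell from 183 ± 5.70 to 164 ± 7.66 CPM (log2 fold change -0.16, edgeR adjusted p = 0.00892). This call was lost under upper-quartile scaling (edgeR adjusted p = 0.0575) and without shTRIP6 replicate 3 (0.0802), and over its alternatives the adjusted p lay between 0.00290 and 0.0802. ENO1, a glycolytic enzyme that also binds plasminogen, stood at 1363 ± 35.2 against 1407 ± 60.5 CPM (edgeR adjusted p = 0.345), and passed as lower without shControl replicate 1 (edgeR adjusted p = 0.0382). ITGB2, an integrin chain of leukocytes whose exons overlap ITGB2-AS1, rose from 3.70 ± 0.858 to 7.58 ± 0.444 CPM, and HMGB1 rose from 414 ± 10.2 to 465 ± 8.32 CPM.

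Of the membrane partners of uPAR and the receptors that clear activators, 3 of 14 tested genes rose, 10 fell and 1 did not pass (median log2 fold change -0.63). VTN, vitronectin, a matrix protein and ligand of uPAR, fell from 18.7, 21.9 and 21.4 CPM in shControl to 0.314, 0.927 and 0.707 CPM in shTRIP6 (log2 fold change -4.99 ± 0.21, edgeR adjusted p = 1.68e-13). It was under 1 CPM in all 3 shTRIP6 libraries. SORL1, a sorting receptor of the LDL receptor family, fell from 12.4 ± 0.162 to 0.159 ± 0.0958 CPM. VLDLR, an endocytic receptor for complexes of activators with serpins, fell from 48.7 ± 3.22 to 18.5 ± 1.49 CPM, and MRC2, a collagen receptor that associates with uPAR, fell from 60.6 ± 2.37 to 26.3 ± 0.943 CPM. In the other direction, LRP1, the main clearance receptor for these complexes, rose from 141 ± 8.67 to 159.5 ± 1.97 CPM (log2 fold change 0.18, edgeR adjusted p = 0.00605), and its chaperone LRPAP1 rose from 82.9 ± 9.81 to 108 ± 3.87 CPM. ITGB3, the beta-3 chain of a vitronectin receptor, rose from 17.4 ± 3.29 to 35.6 ± 1.72 CPM, whereas ITGAV, the alpha chain of that receptor, fell from 234 ± 5.49 to 154 ± 1.54 CPM. The integrin chains ITGB1 and ITGA5 of the fibronectin receptor also fell, from 1982 ± 140.1 to 1265 ± 30.5 CPM and from 392 ± 19.8 to 179 ± 6.49 CPM. ITGA3, the integrin chain of this list that did not pass, stood at 1448 ± 36.0 against 1518 ± 4.51 CPM (edgeR adjusted p = 0.117). ITGAV, ITGB1, ITGA5 and ITGA3 were named after their values were seen. Exons of LRP1 overlap those of LRP1-AS and STAT6, and exons of VLDLR those of VLDLR-AS1.

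Of the proteases that cleave pro-urokinase and their inhibitors, 3 of 5 tested genes rose, 1 fell and 1 did not pass (median log2 fold change 0.32). The lysosomal proteases CTSB and CTSL both rose: CTSB rose from 1321 ± 27.1 to 1645 ± 42.8 CPM and CTSL rose from 215 ± 13.1 to 302 ± 6.29 CPM. Of the serine proteases, ST14 (matriptase) had 0 counts in shTRIP6 and 2 in shControl, and HPN (hepsin) had none in any library. SPINT2, an inhibitor of such proteases, rose at a low level, from 0.335 ± 0.190 to 1.35 ± 0.236 CPM (edgeR adjusted p = 0.000917). PRSS8 (prostasin), the gene that fell and was named after its values were seen, had 3 counts in shTRIP6 against 81 in shControl.

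Of the substrates of plasmin or the activators, 4 of 13 tested genes rose, 6 fell and 3 did not pass (median log2 fold change -0.48). The gelatinase genes MMP9 and MMP2, whose zymogens are activated by proteolysis, both fell. MMP9 fell from 18.5 ± 1.31 to 3.85 ± 0.430 CPM and MMP2 fell from 3.54 ± 0.871 to 0.691 ± 0.120 CPM. LTBP1, which anchors latent TGF-beta in the matrix, fell from 36.5 ± 0.592 to 9.76 ± 0.496 CPM, whereas TGFB1 rose from 67.2 ± 3.09 to 98.5 ± 5.76 CPM. BDNF, whose precursor plasmin can cleave, rose by 0.37 on the log2 scale, and PDGFC, whose product tPA activates, rose by 0.31. HGF and FGA had no count in any library. Exons of MMP9, TGFB1 and BDNF overlap those of SLC12A5-AS1, HNRNPUL1 and BDNF-AS.

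Of the transcription factor genes of families known to act on the activator and receptor promoters, 5 of 16 tested genes rose, 7 fell and 4 did not pass (median log2 fold change -0.23). FOSL1, an AP-1 subunit, stood at 824, 820.1 and 785 CPM in shTRIP6 and at 520.3, 400.1 and 455 CPM in shControl (log2 fold change 0.82 ± 0.065, edgeR adjusted p = 2.98e-09). The groups did not overlap. ETS1 rose from 320.0 ± 6.15 to 476 ± 9.54 CPM and SP3 rose from 113 ± 0.966 to 137 ± 4.06 CPM. Among those that fell, JUNB fell from 95.4 ± 3.39 to 19.4 ± 0.652 CPM, ETS2 fell from 66.8 ± 0.874 to 22.4 ± 1.51 CPM and JUND fell from 67.0 ± 5.00 to 28.6 ± 1.83 CPM. Exons of JUNB overlap those of HOOK2.

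**Figure D3:**
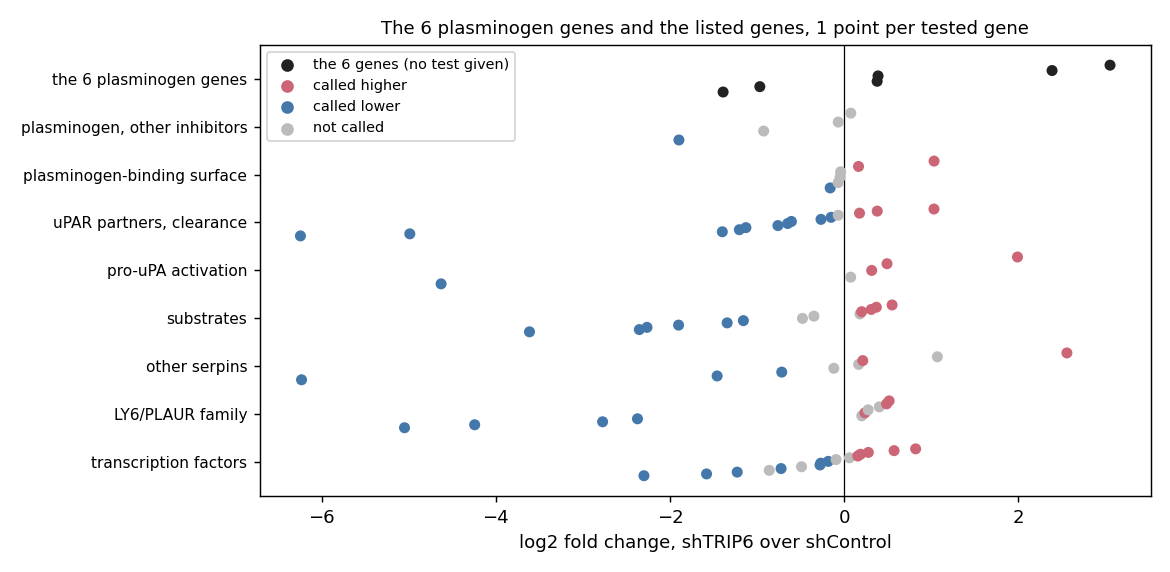
Log2 fold change of shTRIP6 over shControl for the 6 plasminogen genes (black, no test given) and for each tested gene of the lists, with red for genes called higher, blue for genes called lower and grey for genes not called by edgeR at an adjusted p under 0.05. The activators lie at 3.05 and 2.39, and the row of uPAR partners and clearance receptors holds 10 blue and 3 red points.

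Genes beside the 6 moved in both directions. The 2 nearest protein-coding genes on each side came to 24, of which 18 were tested, 6 rose, 4 fell and 8 did not pass. Over all tested genes 29.0% were called higher and 31.2% lower, and nothing is read from the counts of neighbours. Beside PLAT, IKBKB and POLB rose by 0.54 and 0.39 on the log2 scale, while KAT6A and AP3M2 did not pass (edgeR adjusted p = 0.710 and 0.413). Beside PLAU, apart from the overlapping C10orf55 (log2 fold change 2.46), NDST2 and VCL rose by 0.29 and 0.33 and CAMK2G fell by 0.56. Beside PLAUR, CADM4 fell from 3.36 ± 0.216 to 0.223 ± 0.113 CPM, SMG9 rose by 0.31 and ZNF428 did not pass (edgeR adjusted p = 0.978). Beside PLGRKT, neither CD274 nor PDCD1LG2 passed (edgeR adjusted p = 0.459 and 0.177). Beside SERPINE2, CUL3 fell by 0.23, and WDFY1 and MRPL44 did not pass (edgeR adjusted p = 0.887 and 0.349).

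SERPINB2 lies in the cluster of clade B serpins on chromosome 18, where 9 other genes of the clade were counted and 3 were tested. SERPINB5 (maspin; chromosome 18, 63476761 to 63505085, plus strand) fell from 68.0 ± 2.15 to 0.905 ± 0.306 CPM (edgeR adjusted p = 4.40e-18). SERPINB7 (chromosome 18, 63752935 to 63805376, plus strand), a neighbour of SERPINB2, fell from 177 ± 12.3 to 108 ± 5.02 CPM (edgeR adjusted p = 2.64e-09). On the other side of SERPINB2, the overlapping SERPINB10 had 24 counts in shTRIP6 and 3 in shControl and was not tested. HMSD, also on that side, did not pass (edgeR adjusted p = 0.325). SERPINB8 stood at 36.1 ± 1.40 against 37.9 ± 3.25 CPM and did not pass (edgeR adjusted p = 0.459). Of the 3 clade B genes on chromosome 6, SERPINB9, an inhibitor of granzyme B, rose from 0.694 ± 0.215 to 4.12 ± 0.232 CPM, SERPINB1 rose from 40.3 ± 1.23 to 46.8 ± 1.82 CPM, and SERPINB6 did not pass (edgeR adjusted p = 0.208). Whether the chromosomes differ was not tested.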

How the data were processed

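RNA from 6 libraries of RKO cells, 3 shTRIP6 and 3 shControl as the labels group them, was analysed. The deposited values were raw counts per gene symbol. TopHat2, edgeR, limma and the build hg38 are named, without role or version, in the submitters' processing notes. Counting tool, annotation and strand were not given in the sources used here.

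All genes entered 1 fit in R 4.3.3 with edgeR 4.0.16 (TMM scaling, filterByExpr, group as the only term, quasi-likelihood test). A gene was called at an adjusted p (Benjamini-Hochberg) under 0.05. Each SE is the log2 fold change over the square root of its F statistic, and CPM uses TMM-scaled library sizes. The 6 genes, the lists and the tests were chosen with earlier results of these data known. The rule for named genes took the 6, up to 3 largest rises and falls per list among called genes at a mean of 1 CPM or more, a few pathway genes whatever their values, the 2 neighbours on each side, and the 3 genes nearest in pattern at 10 CPM or more. Clone-based, LINC and open-reading-frame symbols were left out of the search for the nearest genes.

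Exon lengths and positions came from GENCODE 29, which holds 25772 of the 27980 symbols. A count of 0 was given a limit of 3 counts; limits cover counting error alone, as reads lacking molecular identifiers need not be independent. Replicates of a group differed beyond sampling noise (chi-square per degree of freedom 3.05 to 11.7). On simulated data (15299 genes fitted), edgeR recovered 32% of genes changed by a fold of 1.2, 88% by 1.5, 98% by 2 and 100% by 4, and 10 unchanged genes were called. Only 200 genes were changed there, none of them at low counts, whereas 9307 genes were called in the real data. These rates therefore need not hold for the real data or for genes at low counts. Alternatives were RLE scaling, upper-quartile scaling, library size only, all genes unfiltered, 1 CPM in 3 libraries, DESeq2 1.42.0, limma-voom (limma 3.58.1), a replicate block, each library left out, and ratios without length correction. The longest transcript as length and PLAU without C10orf55 counts were added after the data were seen. Some listed or ranked genes are not reported here.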

Additional observations from a re-analysis of the deposited data

How the results depend on the processing

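Over the alternatives, log2 fold changes lay between 3.04 and 3.10 for PLAT, 2.34 and 2.44 for PLAU, 0.33 and 0.44 for PLAUR, 0.30 and 0.48 for PLGRKT, -1.43 and -1.34 for SERPINE2 and -0.98 and -0.92 for SERPINB2. Under upper-quartile scaling, PLAT stood at 3.10, ANXA2 and ENO1 turned to 0.0077 and 0.0021, 1 other inhibitor (SERPINB6) was called higher and 0 plasminogen-binding genes lower. That scaling moved the median of all genes to 0.044. Without the low-count filter, and at 1 CPM in 3 libraries, 0 other inhibitors were called lower. At 1 CPM 0 pro-urokinase genes were called lower either, since SERPINI1 and PRSS8 were then not tested. Leaving out a library gave 0 to 1 other inhibitors and 0 (without shTRIP6 replicate 3) to 3 (without shControl replicate 1) plasminogen-binding genes called lower. Low depth limits PLG, SERPINI1, ST14, PRSS8 and, less, PLGRKT.

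In shTRIP6 and shControl, PLAU over PLAUR was 4.38 and 1.10 without length correction and 2.65 and 0.667 with the longest transcript. PLAT over SERPINE2 was 4.13 and 0.190, and 7.15 and 0.329. Activators over SERPINE2 and SERPINB2 were 1.09 and 0.0876 without length correction and 0.861 in shTRIP6 with the longest transcript.

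Same-numbered libraries showed no shared deviation (correlations -0.0060, -0.0092 and -0.052), and differently numbered ones gave correlations from -0.044 to 0.060. With 3 libraries in each group, this cannot exclude a pairing by culture or day. With the replicate block, 4377 genes were called higher and 4702 lower, against 4487 and 4820, and 22 and 34 listed genes.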

Other observations

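Of the other genes of the LY6/PLAUR family, whose products share the fold of uPAR, 3 of 10 tested genes rose, 4 fell and 3 did not pass (median log2 fold change 0.22). LY6K rose from 104 ± 6.63 to 149 ± 3.73 CPM, CD59, an inhibitor of complement lysis, rose from 720.3 ± 39.8 to 1009.9 ± 11.3 CPM, and LY6E rose from 180.4 ± 4.16 to 213 ± 10.050 CPM. LYPD3 fell from 32.8 ± 2.54 to 0.984 ± 0.502 CPM, PSCA fell from 117 ± 9.23 to 6.19 ± 0.330 CPM and LYPD1 fell from 4.16 ± 0.433 to 0.605 ± 0.0313 CPM. Exons of PSCA, LYPD1 and LY6E overlap those of JRK, GPR39 and LY6E-DT. Of the serpins outside the inhibitor list, 2 of 8 tested genes rose, 3 fell and 3 did not pass (median log2 fold change 0.024). SERPINH1, the collagen chaperone HSP47, which is not a protease inhibitor, fell from 327 ± 2.96 to 119 ± 1.87 CPM (edgeR adjusted p = 1.41e-15).

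The genes whose values were most like those of the 6 were found by the root mean square difference of log2(CPM + 0.5), centred on each gene's mean, over the 6 libraries. This distance follows mostly the difference between the groups. Genes with clone-based, LINC or open-reading-frame symbols were left out, among them C10orf55, whose exons overlap PLAU and whose levels followed it closely. The genes below are the nearest among the rest. Nearest to PLAT were PLAU (0.334), SHISA2 (0.346) and GLUL (0.442). Both PLAT and PLAU were chosen with their levels known, so nothing is read from PLAU being nearest to PLAT. The distances from PLAT exceed all others given here, so even its nearest genes were not close to it. Nearest to PLAU were SLAIN1 (0.125), GLUL (0.153) and MAGED4B (0.198). Among the nearest to PLAUR were ZDHHC8 (0.0286) and NFKB2 (0.0306). Nearest to SERPINE2 were CCR1 (0.0276), ABCA2 (0.0315) and FN1 (0.0449), and nearest to SERPINB2 were MAPKAP1 (0.0242), PRSS23 (0.0243) and NUP188 (0.0273). MAGED4B has a near-identical copy, so its counts are uncertain. PLGRKT stood below 10 CPM and was left out.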
